A study of Mus musculus with 17 samples.

Results

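The 10 phosphodiesterase genes described here were those of the PDE2, PDE4, PDE5, PDE7, PDE8 and PDE10 classes on a list: Pde2a, Pde4a, Pde4b, Pde4d, Pde5a, Pde7a, Pde7b, Pde8a, Pde8b and Pde10a. They were found by symbol among 56953 genes of a count table of mouse prefrontal cortex RNA, and all 10 passed the filter on low counts that left 23062 genes. RNA was sequenced from B6C3F1/J mice of 3 genotypes, 8 months old by the labels, although a legend of the study gives a later age. WT mice (5 libraries) carried no transgene, and PS19 mice (6 libraries, labelled hTau) carried human Tau with the P301S mutation under the prion protein (Prnp) promoter. CgA-KO/PS19 mice (6 libraries, labelled CgA-KO/hTau) carried the same transgene and lacked Chga, the chromogranin A gene, in the whole body, so that both Tau genotypes shared the transgene and no library of a Chga knockout without it was analysed here. The study describes the groups as mice of both sexes, but the labels tie no library to a sex or an animal. Taken as separate samples, the libraries give p-values that measure the spread between them, which may in part be technical.

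Phosphodiesterases cut the cyclic nucleotides cAMP and cGMP and so end the signals that adenylate and guanylate cyclases start. PDE4, PDE7 and PDE8 enzymes cut cAMP, PDE5 cuts cGMP, and PDE2 and PDE10 cut both. In the brain, PDE10A is known as an enzyme of the medium spiny neurons of the striatum, PDE2A is abundant in cortex and striatum, and PDE4 enzymes, the targets of rolipram, act beside synaptic receptors and anchoring proteins.

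Counts summed to 8838334 (WT replicate 4) to 227651681 per library, and levels are given as CPM (counts after TMM scaling of the library sizes). Chga, the check of the knockout, had 0 counts in all 6 CgA-KO/PS19 libraries. If each count were 1 read, that would allow at most 0.0866 CPM (3 counts, for counting error alone) in the shallowest of them. Low counts were coarse, as given under the processing of the data, so the true limit may be higher. The level of Chga was 163 ± 11.9 CPM (SD, n = 5) in WT and 168 ± 6.68 (SD, n = 6) in PS19. Prnp, whose promoter drives the transgene, was at 2119 ± 174 CPM (n = 6) in PS19, at 1561 ± 321 (n = 6) in CgA-KO/PS19 and at 833 ± 71.0 (n = 5) in WT. By edgeR, Prnp was lower in CgA-KO/PS19 than in PS19 (log2 fold change -0.44 ± 0.12, SE, adjusted p = 0.0304). Within CgA-KO/PS19 it was at 1236 to 1348 CPM in replicates 1 to 3 and 1676 to 2078.5 in replicates 4 to 6. Mapt, the mouse Tau gene, was at 868 ± 42.8 CPM in PS19, 705 ± 118 in CgA-KO/PS19 and between 199 and 739.6 in WT, where replicate 4 was the lowest. Slc17a7 and Tbr1, 2 of 10 listed markers of cortical excitatory neurons, were present in every library, at no less than 492 and 130 CPM. PS19 libraries spanned 1893 to 2166 CPM in the summed list, those of WT 1181 to 2651, and CgA-KO/PS19 libraries 1248 to 1987. By edgeR, Cux2 (log2 fold change -0.91, adjusted p = 0.0118) and Emx1 (-0.94, adjusted p = 0.0346) were lower in WT than in PS19. Emx1 was also lower in CgA-KO/PS19 than in PS19 (-0.86, adjusted p = 0.0313). No other listed marker passed against PS19. The 20 striatal markers, among them Drd1, Drd2 and Adora2a, summed to 1249 to 3923 CPM in WT and 344 to 3130 in CgA-KO/PS19 but to 424 to 479 in PS19, with WT replicates 3 and 5 and CgA-KO/PS19 replicates 1 and 3 above 3000. Replicates 1 to 3 of every genotype had Ddx3y, a gene of the Y chromosome, at 49.8 to 76.8 CPM, and all others had at most 0.0582. By this gene, replicates 1 to 3 read as male and the others as female, though no label states it. PS19 replicates 4 to 6 differed from each other by a robust SD of 0.0519 to 0.0602 in the log2 ratio of well-counted genes and CgA-KO/PS19 replicates 1 and 3 by 0.0973, against 0.145 to 0.585 for other pairs of 1 genotype. If each count is 1 independent read, the median chi-square of these close pairs was still 10.8 to 32.1 times what counting noise gives. The coarse low counts leave that size uncertain. Repeat libraries of 1 animal can also exceed counting noise, so this ratio cannot tell whether the libraries came from separate animals. Each was kept as a sample without that being tested, and results with these libraries averaged are given further on.

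Scaled by exon length (CPM per kb of merged exons), Pde2a was the highest of the 10 genes in all 3 genotypes and Pde5a the lowest. In PS19, Pde2a stood at 56.7 ± 2.91 CPM per kb (SD, n = 6), followed by Pde4a (20.7 ± 0.819), Pde8b (19.4 ± 0.683) and Pde4b (13.2 ± 1.36). The next levels per kb in PS19 were those of Pde4d (6.53 ± 0.377), Pde7b (5.80 ± 0.369), Pde10a (3.94 ± 1.43) and Pde8a (3.48 ± 0.219). Pde7a (2.94 ± 0.101) and Pde5a (2.19 ± 0.236) came last. Neighbours in this order whose libraries overlapped were Pde4a with Pde8b, Pde4d with Pde7b, Pde7b with Pde10a, and Pde10a with Pde8a. In WT, Pde10a was the second gene per kb at 36.4 ± 28.7 (n = 5), with libraries from 11.4 to 70.1. In CgA-KO/PS19 it was the fifth at 12.0 ± 13.2 (n = 6), with libraries from 2.57 to 30.5. Pde2a and Pde10a, whose enzymes cut both nucleotides, made up 45.0% ± 1.60 (PS19, n = 6), 56.6% ± 9.61 (WT, n = 5) and 47.9% ± 9.63 (CgA-KO/PS19, n = 6) of the summed length-scaled level of the 10 genes, and the ranges overlapped. The 7 cAMP genes of PDE4, PDE7 and PDE8 made up 53.4% ± 1.54, 42.4% ± 9.05 and 51.0% ± 9.28 in the same order.

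**Figure D1:**
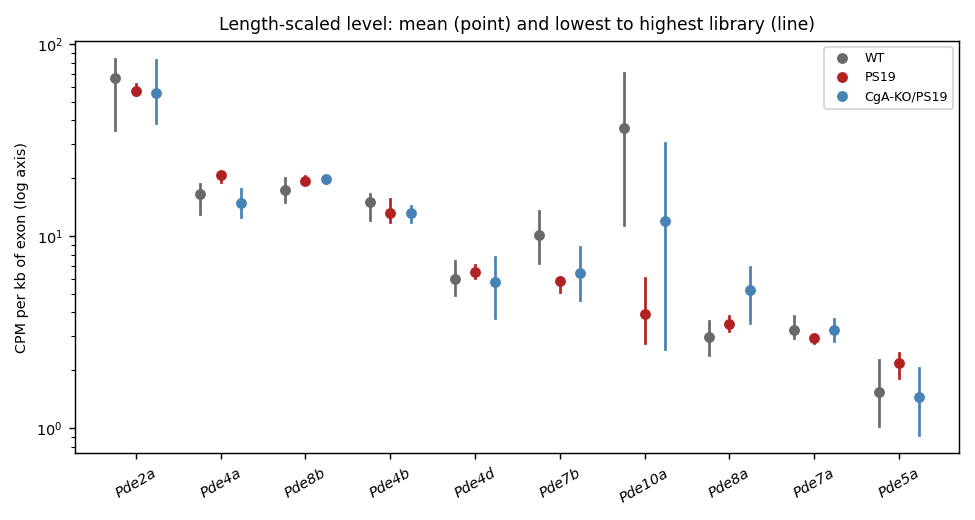
Length-scaled level (CPM per kb of exon, log axis) of each of the 10 genes in WT, PS19 and CgA-KO/PS19, with points for means and lines from the lowest to the highest library. Pde2a lies at the top and Pde5a at the bottom in each genotype, and Pde10a has the widest lines, from 11.4 to 70.1 in WT and from 2.57 to 30.5 in CgA-KO/PS19.

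The design gives 3 comparisons: WT against PS19 for the Tau transgene, CgA-KO/PS19 against PS19 for the loss of chromogranin A on that background, and CgA-KO/PS19 against WT. Prnp also differed between CgA-KO/PS19 and PS19, so these groups were not equal in that gene. In WT against PS19, Pde10a and Pde7b were higher in WT and no member was lower, so that 2 of 10 passed an adjusted p of 0.05, beside 5.9% of all genes tested (3.95% higher and 1.95% lower). In CgA-KO/PS19 against PS19, Pde8a was higher and Pde4a lower, which is again 2 of 10, beside 9.72% of all genes (5.5% higher and 4.22% lower). Against WT, CgA-KO/PS19 libraries had Pde8a higher and Pde7b lower, beside 6.46% of all genes (3.56% higher and 2.89% lower). These comparisons share libraries, so their values are set side by side and no overlap between them was tested. The median log2 fold change of the 10 genes was -9.4e-05, 0.0071 and -0.11 in this order, against -0.0097, 0.026 and 0.0090 over all genes tested. The 2 genotypes had no library in each other's range for 3 members in WT against PS19 (Pde10a, Pde7b and Pde4a, beside 9.52% of all genes), for 1 in CgA-KO/PS19 against PS19 (Pde4a, beside 6.63%) and for 0 in CgA-KO/PS19 against WT (3.6%). In such bulk RNA, fewer cells of a type and less RNA per cell cannot be told apart.

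**Figure D2:**
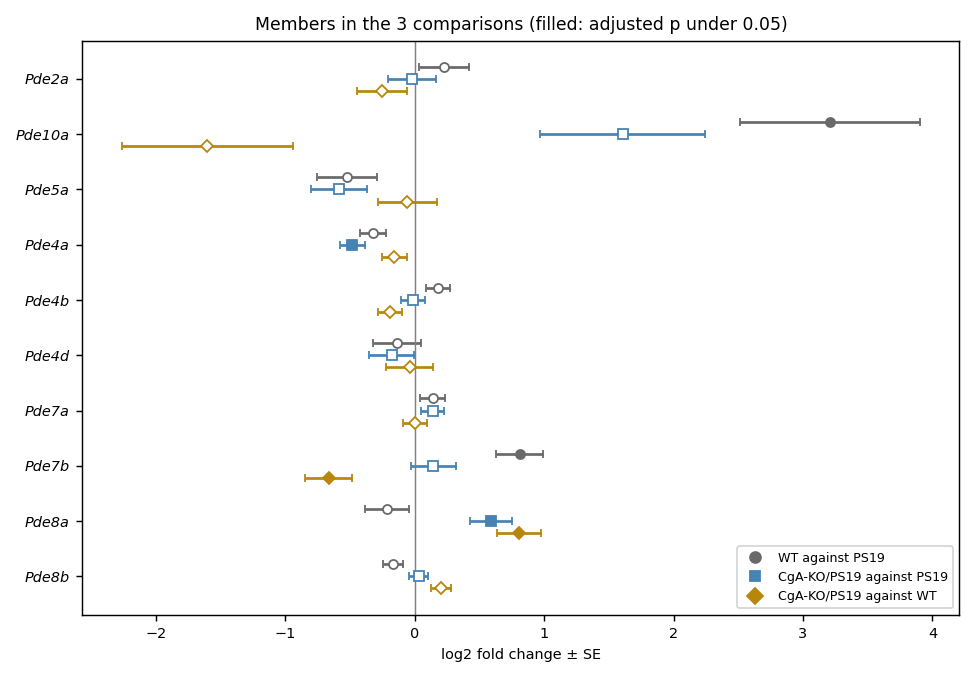
Log2 fold change (x axis, bars are the SE of the edgeR fit) of the 10 genes in the 3 comparisons, filled where the adjusted p was under 0.05. Pde10a in WT against PS19 has the largest change (3.21), and 6 of the 30 points are filled.

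**Figure D3:**
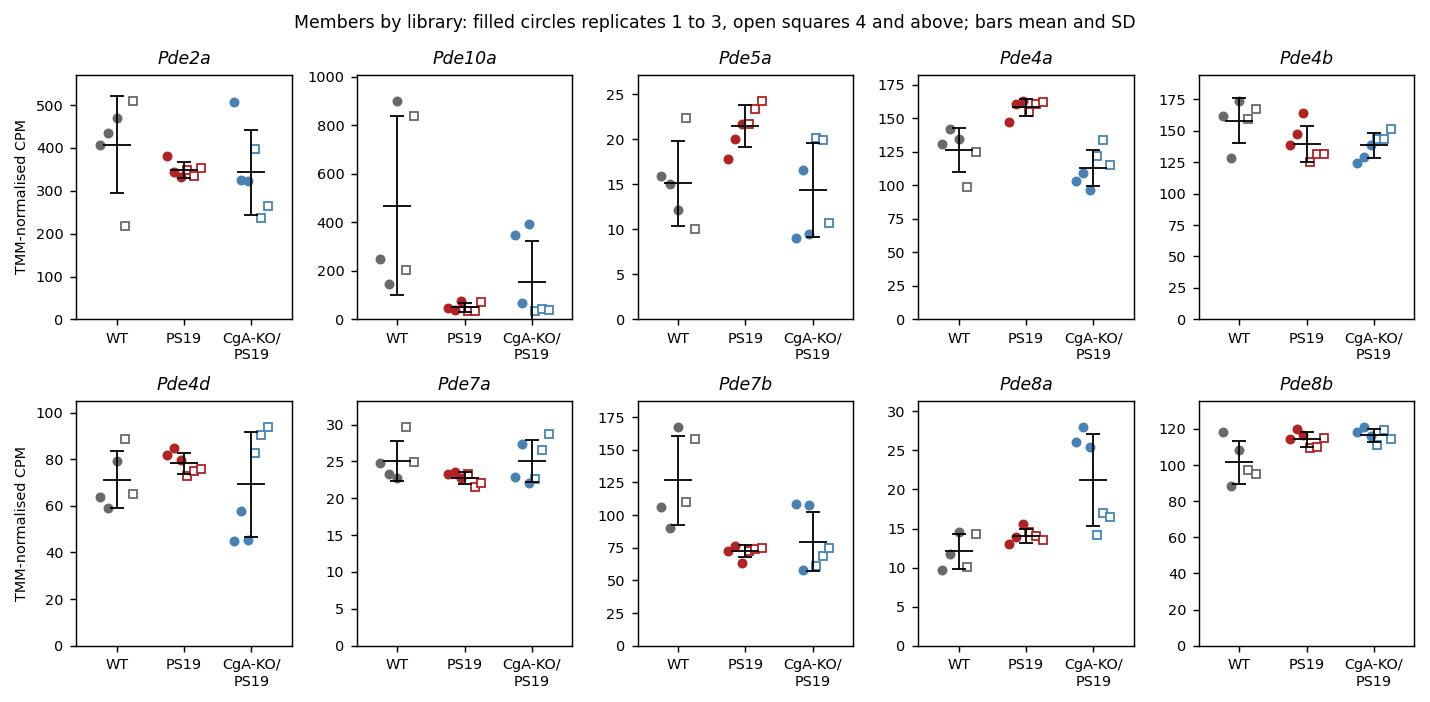
TMM-normalised CPM (y axis from 0) of each of the 10 genes in all 17 libraries, with the mean and SD of each genotype, filled circles for replicates 1 to 3 and open squares for replicates 4 and above. Pde10a in WT spans 147 to 901 CPM and Pde8a and Pde4d in CgA-KO/PS19 fall into separate ranges for the 2 sets of replicates.

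Pde10a (ENSMUSG00000023868, chromosome 17, 8525372 to 8986648, plus strand, GRCm38) encodes the enzyme that cuts cAMP and cGMP in medium spiny neurons. Its level was 248, 147, 901, 206 and 838 CPM in WT replicates 1 to 5. In PS19 the lowest library was at 35.8, the median was 42.2 and the highest library was at 77.7 CPM. All 5 WT libraries were above all 6 PS19 libraries, and WT replicates 3 and 5 were far above the other WT libraries. The mean was 468 ± 369 CPM (SD, n = 5) in WT and 50.6 ± 18.4 (n = 6) in PS19, a log2 fold change of 3.21 ± 0.69 (SE of the edgeR quasi-likelihood fit, Benjamini-Hochberg adjusted p = 0.00978). CgA-KO/PS19 libraries ranged from 33.1 to 392 CPM with a median of 55.8, and replicates 1 and 3 stood at 350 and 392 while the other 4 had at most 67.6. The mean of 154 ± 169 CPM (n = 6) in CgA-KO/PS19 gave a log2 fold change of 1.61 ± 0.64 against PS19 (adjusted p = 0.112). Against WT it was -1.60 ± 0.66 (adjusted p = 0.161), and neither passed the threshold. The difference from PS19 was called in 1 of 34 alternative settings, within replicates 1 to 3 (2.33, adjusted p = 0.0457). Its sign turned within replicates 4 and above (-0.32), and the difference between the 2 sets missed the threshold (interaction term 2.62 ± 0.98, adjusted p = 0.0981).

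Pde10a was highest where the striatal markers were highest. The 4 libraries whose striatal markers summed to over 3000 CPM were the 4 with the highest Pde10a, and 16 of the 20 striatal markers were higher in WT than in PS19 and 13 of 20 in CgA-KO/PS19, with none lower. Within PS19, Pde10a varied where the striatal sum hardly did, since replicates 3 and 6 had 77.7 and 69.7 CPM of Pde10a and the other 4 libraries 35.8 to 45.2, at striatal sums of 433 and 473 CPM inside the range of the genotype. Drd2, the dopamine receptor of indirect-pathway neurons, was at 0.998 ± 0.239 CPM in PS19, against 74.7 ± 48.3 in WT and 29.0 ± 39.7 in CgA-KO/PS19. With a striatal score (the mean centred log2(CPM + 1) of the 20 markers) as a covariate, the log2 fold change of Pde10a in WT against PS19 was 0.14 (adjusted p = 0.837). Without those 4 libraries it was 1.99 (adjusted p = 0.00117). The WT libraries left, replicates 1, 2 and 4, still had striatal sums of 1249 to 1683 CPM, against 424 to 479 in PS19. The sign of CgA-KO/PS19 against PS19 turned without those 4 libraries (-0.14, adjusted p = 0.775), with the striatal score (-0.45, adjusted p = 0.283) and with the oligodendrocyte score described further on (-0.40, adjusted p = 0.706). When the near-identical libraries were averaged to 1 sample each, the WT difference was 3.16 with an adjusted p of 0.059. Against WT, CgA-KO/PS19 passed the test in 3 of the 34 settings. They were the fits without those 4 libraries (-2.13, adjusted p = 0.00305), within replicates 4 and above (-3.77, adjusted p = 0.0148) and with the oligodendrocyte score (-3.64, adjusted p = 0.00454). The part of striatal RNA in these values was not tested. Over the 17 libraries, the genes whose log2 levels followed Pde10a most closely were Actn2 (Pearson's r 0.980), Chat (0.971), the acetylcholine-synthesis gene, and Gpr52 (0.966), points that share the same 4 high libraries.

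Pde7b (ENSMUSG00000019990, chromosome 10, 20398004 to 20725078, minus strand), a cAMP enzyme also known from the striatum, was also higher in WT than in PS19, by less. WT replicates 1 to 5 were at 106, 90.4, 167, 110 and 158 CPM. PS19 libraries ran from 63.3 to 76.3 CPM with a median of 73.2, so that every WT library was above every PS19 library, and replicates 3 and 5 were again the highest. The mean was 126 ± 34.1 CPM (n = 5) in WT and 72.2 ± 4.59 (n = 6) in PS19, and the log2 fold change was 0.81 ± 0.18 (SE, adjusted p = 0.0127). In CgA-KO/PS19, replicates 1 and 3 were at 109 and 107 CPM and the other 4 at 57.8 to 74.5. The mean of 79.7 ± 22.7 CPM differed from PS19 by a log2 fold change of 0.14 ± 0.17 (adjusted p = 0.627) and from WT by -0.67 ± 0.18 (adjusted p = 0.0355). The WT difference from PS19 missed the threshold without WT replicate 5 (adjusted p = 0.051), with averaged near-identical libraries (0.0543) and with the striatal score as a covariate (log2 fold change 0.17, adjusted p = 0.548). It was 0.51 (adjusted p = 0.0145) without the 4 libraries high in striatal markers, which left the WT libraries still above PS19 in those markers. The difference from WT in CgA-KO/PS19 missed it in 11 of 34 settings. Of these, 6 left out 1 library, WT replicate 3 or 5 or CgA-KO/PS19 replicate 2, 4, 5 or 6 (adjusted p of up to 0.118). The others were a minimum of 10 counts in every library (adjusted p = 0.0508), a fit of only the 2 genotypes (0.147), a replicate block (0.071), the striatal score (0.0878) and replicates 1 to 3 alone (0.339). Within replicates 1 to 3, where 0.592% of genes were called, neither Pde7b (0.78, adjusted p = 0.211) nor Pde10a (3.0, adjusted p = 0.119) passed in WT against PS19. Within replicates 4 and above, where 5.81% were called, both did (0.84, adjusted p = 0.0261, and 3.45, adjusted p = 0.0131). Pde7b and Pde10a varied together over the 17 libraries (Pearson's r 0.922), and the genes closest to Pde7b were Chat (0.969), Tbc1d8 (0.959) and Strn (0.957). These values share the 4 libraries high in striatal markers, of which CgA-KO/PS19 replicates 1 and 3 were near-identical.

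**Figure D4:**
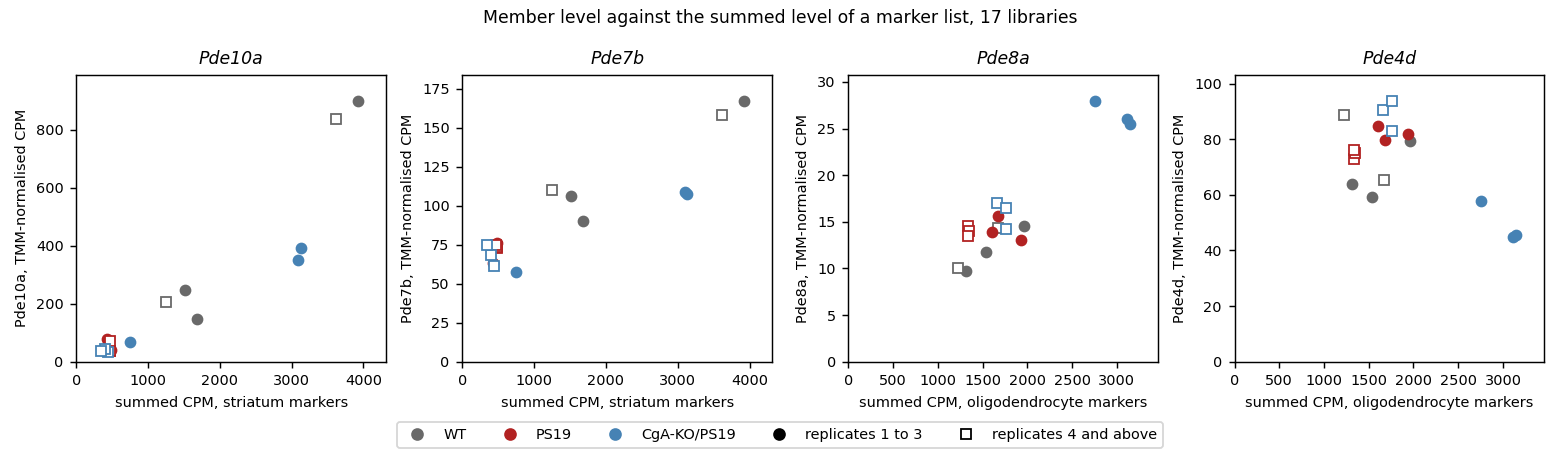
Pde10a and Pde7b (CPM, y axis) against the summed CPM of 20 striatal markers (x axis), and Pde8a and Pde4d against the summed CPM of 10 oligodendrocyte markers, 1 point per library. The 4 libraries above 3000 CPM of striatal markers have the highest Pde10a, and the 3 libraries above 2700 CPM of oligodendrocyte markers have the highest Pde8a and the lowest Pde4d.

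Promoter windows from RefSeq (GRCm38.p6, 250 bases before to 50 after an annotated start) were found for 9 of the 10 genes, 23 windows in all, and are shown for the 4 genes that passed the test. The cAMP response element, the 8-base site of CREB (TGACGTCA, its own reverse complement), was in 0 of the 23 windows and in 1.79% of all 32851 windows. Its shorter form (TGACG, or CGTCA on the other strand, which the full site also contains) was in 5 of the 23 windows and in 20.8% of all windows. Capitals mark the shorter form. The 2 starts of Pde10a (chr17:8801495-8801794 and chr17:8849735-8850034, plus strand) and the start of Pde7b (chr10:20548279-20548578, minus strand), shown because these genes varied together, hold none. These windows lie inside the annotated genes. Pde10a (14 transcripts) begins further upstream at 8525372 and Pde7b (8 transcripts) at 20725078, where no window was found. For Pde10a, upstream and downstream below give only the order of the 2 windows. Pde8a (chr7:81213015-81213314, plus strand) and 1 of the 3 starts of Pde4a (chr9:21183851-21184150, plus strand) hold 1 each, 84 and 50 bases before the RefSeq start. The Pde8a window ends before the start of that gene in the annotation used for positions, 81213596. The other windows of Pde4a hold none and are not shown. A match is a description of these letters, and binding was not measured.
Pde10a, upstream start: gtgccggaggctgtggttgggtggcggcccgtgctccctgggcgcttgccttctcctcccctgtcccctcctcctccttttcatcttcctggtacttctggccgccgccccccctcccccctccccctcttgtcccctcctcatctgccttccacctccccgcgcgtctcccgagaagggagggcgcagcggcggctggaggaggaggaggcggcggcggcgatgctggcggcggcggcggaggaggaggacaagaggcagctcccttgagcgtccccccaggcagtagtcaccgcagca
Pde10a, downstream start: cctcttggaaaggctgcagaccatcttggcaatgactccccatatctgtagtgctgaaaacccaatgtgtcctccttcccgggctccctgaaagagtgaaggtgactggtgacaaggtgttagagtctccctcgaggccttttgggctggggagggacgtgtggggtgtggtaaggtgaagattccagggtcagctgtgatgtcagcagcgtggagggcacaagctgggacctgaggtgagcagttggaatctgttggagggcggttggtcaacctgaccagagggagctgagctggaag
Pde7b: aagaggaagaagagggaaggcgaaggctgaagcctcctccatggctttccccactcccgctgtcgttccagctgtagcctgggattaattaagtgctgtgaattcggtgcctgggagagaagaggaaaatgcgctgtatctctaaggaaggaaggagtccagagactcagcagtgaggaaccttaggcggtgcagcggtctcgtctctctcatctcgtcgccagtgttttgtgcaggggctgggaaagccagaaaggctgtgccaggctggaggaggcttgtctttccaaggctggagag
Pde8a: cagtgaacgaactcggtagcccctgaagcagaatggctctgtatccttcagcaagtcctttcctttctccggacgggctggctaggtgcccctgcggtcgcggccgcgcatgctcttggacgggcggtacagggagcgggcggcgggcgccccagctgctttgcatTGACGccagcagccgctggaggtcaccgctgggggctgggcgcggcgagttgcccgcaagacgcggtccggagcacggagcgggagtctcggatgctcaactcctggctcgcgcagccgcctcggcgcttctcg
Pde4a, 1 of 3 starts: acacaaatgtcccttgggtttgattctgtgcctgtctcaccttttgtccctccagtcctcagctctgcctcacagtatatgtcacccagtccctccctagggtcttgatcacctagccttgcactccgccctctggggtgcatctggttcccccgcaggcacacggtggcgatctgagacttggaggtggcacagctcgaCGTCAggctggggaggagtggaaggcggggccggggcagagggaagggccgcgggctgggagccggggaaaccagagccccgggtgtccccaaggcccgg

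Pde2a (ENSMUSG00000110195, chromosome 7, 101421691 to 101512827, plus strand), whose cAMP breakdown is stimulated by cGMP, had the highest level of the 10 genes per kb. Its level was 406, 436, 469, 218 and 510 CPM in WT replicates 1 to 5, and the lowest of these was the shallowest library. PS19 libraries lay between 332 and 381 CPM (median 347) and CgA-KO/PS19 libraries between 237 and 508 (median 325), so that the PS19 range was inside both others. The log2 fold change was 0.23 ± 0.19 (SE, adjusted p = 0.548) in WT against PS19, -0.026 ± 0.19 (adjusted p = 0.948) in CgA-KO/PS19 against PS19 and -0.25 ± 0.19 (adjusted p = 0.498) in CgA-KO/PS19 against WT. In the annotation, 64.3% of the exon bases of Pde2a are shared with Gm45837 on the same strand, and counts of Gm45837 ran from 0 in 5 libraries to 36032 in CgA-KO/PS19 replicate 3, where Pde2a had 58780. Summed with Gm45837, Pde2a stood at 352 ± 17 CPM in PS19, 411 ± 107 in WT and 396 ± 105 in CgA-KO/PS19. That sum turned CgA-KO/PS19 against PS19 to 0.17 (adjusted p = 0.555). How reads were shared between the 2 genes is not given in the sources used here, so levels of Pde2a alone are uncertain.

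Pde5a (ENSMUSG00000053965, chromosome 3, 122728947 to 122859374, plus strand) encodes the cGMP enzyme that sildenafil inhibits, known from vascular smooth muscle. WT replicates 1 to 5 were at 15.97, 15.0, 12.1, 22.4 and 10.0 CPM. PS19 libraries had a lowest, median and highest level of 17.9, 21.7 and 24.3 CPM, and 4 of the 5 WT libraries were below all of them. CgA-KO/PS19 libraries ran from 9.08 to 20.2 CPM with a median of 13.7, and 4 of the 6 were below all PS19 libraries. The log2 fold change was -0.53 ± 0.23 in WT against PS19 (adjusted p = 0.198) and -0.58 ± 0.22 in CgA-KO/PS19 against PS19 (adjusted p = 0.0911), neither past the threshold. Of 34 settings, 2 called the first, limma voom (-0.77, adjusted p = 0.00301) and the oligodendrocyte score (-0.65, adjusted p = 0.0384). The second was called in 4, limma voom (-0.74, adjusted p = 0.00807), replicates 1 to 3 alone (-0.75, adjusted p = 0.0354) and the fits without CgA-KO/PS19 replicate 4 or 5 (-0.70 in each, lowest adjusted p = 0.0375). With the striatal score the first turned to 0.23 (adjusted p = 0.542). The log2 fold change was -0.059 ± 0.23 between CgA-KO/PS19 and WT (adjusted p = 0.922). Smooth muscle and pericyte markers, 8 genes, summed to 190 to 193 CPM in CgA-KO/PS19 replicates 1 to 3 and 105 to 120 in replicates 4 to 6, against 93.9 to 132 in PS19 and 93.7 to 128 in WT. Their part in these values was not tested.

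Pde4a (ENSMUSG00000032177, chromosome 9, 21165714 to 21213248, plus strand), a cAMP enzyme of the rolipram-sensitive class, was lower in CgA-KO/PS19 than in PS19. PS19 libraries lay between 147 and 163 CPM (median 161), and CgA-KO/PS19 replicates 1 to 6 were at 103, 109, 96.3, 122, 134 and 115 CPM. All 6 CgA-KO/PS19 libraries were below all 6 PS19 libraries. The mean was 158 ± 6.27 CPM (n = 6) in PS19 and 113 ± 13.4 (n = 6) in CgA-KO/PS19, a log2 fold change of -0.48 ± 0.094 (SE, adjusted p = 0.0066). It passed the test with each library left out in turn (-0.54 to -0.43, adjusted p of up to 0.0188) but not with near-identical libraries averaged (-0.44, adjusted p = 0.0872), nor within replicates 4 and above alone (-0.39, adjusted p = 0.236). Mitochondrial genes took 3.84% to 18.2% of counts in CgA-KO/PS19, 2.56% to 4.59% in PS19 and 3.53% to 7.94% in WT. A fit without those genes still called 2 members in CgA-KO/PS19 against PS19. Such a fit does not adjust for the mitochondrial share, whose part in the level of Pde4a was not tested. WT replicates 1 to 5 were at 131, 142, 134, 99.1 and 125 CPM, also below every PS19 library, and their log2 fold change against PS19 of -0.32 ± 0.099 missed the threshold (adjusted p = 0.0621). That difference was called in 7 of 34 settings, among them DESeq2 (adjusted p = 0.0136) and limma voom (adjusted p = 0.00941). CgA-KO/PS19 against WT gave -0.16 ± 0.099 (adjusted p = 0.379), and this difference was lower in replicates 1 to 3 than in the others (interaction term -0.54 ± 0.14, adjusted p = 0.0456, with 5.47% of all genes called). The genes closest to Pde4a over the 17 libraries were Mark1 (Pearson's r 0.952), a kinase of microtubule-associated proteins, Iglon5 (0.949) and Fndc5 (0.944).

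Pde4b (ENSMUSG00000028525, chromosome 4, 102087543 to 102607259, plus strand) did not pass the test in any comparison. Its libraries ranged from 125 to 164 CPM in PS19 (median 135), while those of WT ran from 128 to 174 (median 162) and those of CgA-KO/PS19 from 125 to 151 (median 141), with all 3 ranges overlapping. Its log2 fold changes were 0.18 ± 0.094 in WT against PS19 (adjusted p = 0.301), -0.015 ± 0.090 in CgA-KO/PS19 against PS19 (adjusted p = 0.935) and -0.19 ± 0.094 in CgA-KO/PS19 against WT (adjusted p = 0.249).

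Pde4d (ENSMUSG00000021699, chromosome 13, 108449948 to 109953461, plus strand), the PDE4 gene with the longest span of the 10 genes at 1503514 bases, showed 2 separate ranges within CgA-KO/PS19. Replicates 1 to 3 were at 44.8, 57.9 and 45.5 CPM and replicates 4 to 6 at 82.8, 90.5 and 93.8. PS19 libraries lay between 72.8 and 84.9 CPM (median 77.8), above the first set and, for 5 of 6, below all libraries of the second. Over all libraries the log2 fold change in CgA-KO/PS19 against PS19 was -0.18 ± 0.17 (adjusted p = 0.531). Within replicates 1 to 3 it was -0.72 (adjusted p = 0.00481), in a fit that called 31.1% of all genes, and within replicates 4 and above 0.24 (adjusted p = 0.423), where 0.806% of genes were called. An interaction term put the difference between the sets at -0.99 ± 0.19 (SE, adjusted p = 0.00524), in a test that called 11.7% of all genes. WT replicates 1 to 5 were at 63.7, 59.2, 79.5, 88.9 and 65.2 CPM, overlapping PS19 (log2 fold change -0.14 ± 0.18, adjusted p = 0.721). With the striatal score as a covariate, WT against PS19 turned to 0.53 (adjusted p = 0.0368), the 1 call of this difference in 34 settings. CgA-KO/PS19 against WT gave a log2 fold change of -0.041 ± 0.18 (adjusted p = 0.932).

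Pde8a (ENSMUSG00000025584, chromosome 7, 81213596 to 81334533, plus strand), one of the high-affinity cAMP enzymes, had its highest mean in CgA-KO/PS19, above both other genotypes. CgA-KO/PS19 replicates 1 to 3 were at 26.0, 28.0 and 25.5 CPM and replicates 4 to 6 at 14.2, 17.04 and 16.5. PS19 libraries had a lowest, median and highest level of 13.005, 14.0 and 15.6 CPM, and WT replicates 1 to 5 were at 9.75, 11.7, 14.5, 10.0 and 14.3. Of the 6 CgA-KO/PS19 libraries, 5 were above all PS19 libraries, and replicate 4 was inside the PS19 and WT ranges. The mean of 21.2 ± 5.94 CPM (n = 6) was above the 14.1 ± 0.887 (n = 6) of PS19 by a log2 fold change of 0.59 ± 0.16 (SE, adjusted p = 0.0306). It was above the 12.1 ± 2.28 (n = 5) of WT by 0.80 ± 0.17 (adjusted p = 0.011). WT against PS19 gave -0.21 ± 0.17 (adjusted p = 0.51). That difference was called in 1 of 34 settings, with the striatal score as a covariate (-0.83, adjusted p = 0.00443). The difference of CgA-KO/PS19 from PS19 was 0.92 within replicates 1 to 3 (adjusted p = 0.00246) and 0.16 within replicates 4 and above (adjusted p = 0.663). Its interaction term was 0.72 ± 0.22 (adjusted p = 0.0449).

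Across CgA-KO/PS19 libraries, oligodendrocyte markers were higher in the replicates with high Pde8a and low Pde4d. Their 10 genes summed to 2755 to 3149 CPM in CgA-KO/PS19 replicates 1 to 3 and 1659 to 1760 in replicates 4 to 6, against 1331 to 1933 in PS19 and 1226 to 1964 in WT, and 2 of the 10 were higher in CgA-KO/PS19 than PS19 by the test. PS19 libraries did not follow this pattern. PS19 replicate 1 had the highest sum there (1933 CPM) and the lowest Pde8a (13.005 CPM). PS19 replicates 1 to 3, with sums of 1608 to 1933, had Pde4d at 79.6 to 84.9 CPM. PS19 replicates 4 to 6, with sums of 1331 to 1343, had it at 72.8 to 76.0. CgA-KO/PS19 replicates 1 to 3 had GABAergic interneuron markers at 841 to 893 CPM, against 1379 to 1385 in replicates 4 to 6, and mitochondrial genes at 13.8% to 18.2% of counts. That share was 3.84%, 6.63% and 10.9% in replicates 4 to 6, the last 2 of them above the 2.56% to 4.59% of PS19. With the oligodendrocyte score as a covariate, Pde8a was at 0.23 (adjusted p = 0.327) against PS19 and 0.39 (adjusted p = 0.182) against WT, and with the striatal score at 0.28 (adjusted p = 0.138) and 1.11 (adjusted p = 8.32e-05). Leaving out any 1 of 8 libraries (PS19 replicates 1, 2, 4, 5 and 6 and CgA-KO/PS19 replicates 1 to 3) ended the call against PS19, with an adjusted p of up to 0.0808. It held in 19 of 34 settings and was also lost with no filter on low counts (adjusted p = 0.0649), a replicate block (0.0727), near-identical libraries averaged (0.191) and without the 4 libraries high in striatal markers (0.44, adjusted p = 0.129). No single library ended the call against WT, which held in 30 of 34 settings. Besides the oligodendrocyte score, it was lost with near-identical libraries averaged (adjusted p = 0.0513), in a fit of only the 2 genotypes (0.0758) and within replicates 4 and above (0.37, adjusted p = 0.391). The genes closest to Pde8a over the 17 libraries were Lpar1 (Pearson's r 0.962), a lysophosphatidic acid receptor, Gm37226 (0.960) and Dock1 (0.957). These correlations share the high CgA-KO/PS19 replicates 1 to 3, of which replicates 1 and 3 were near-identical. With Ddx3y as a covariate, 2 members were called against PS19 and 2 against WT, the same counts as without it. Beyond these covariate fits, the part of the Y-linked split, the cell markers and the mitochondrial share in the levels of Pde8a and Pde4d was not tested.

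**Figure D5:**
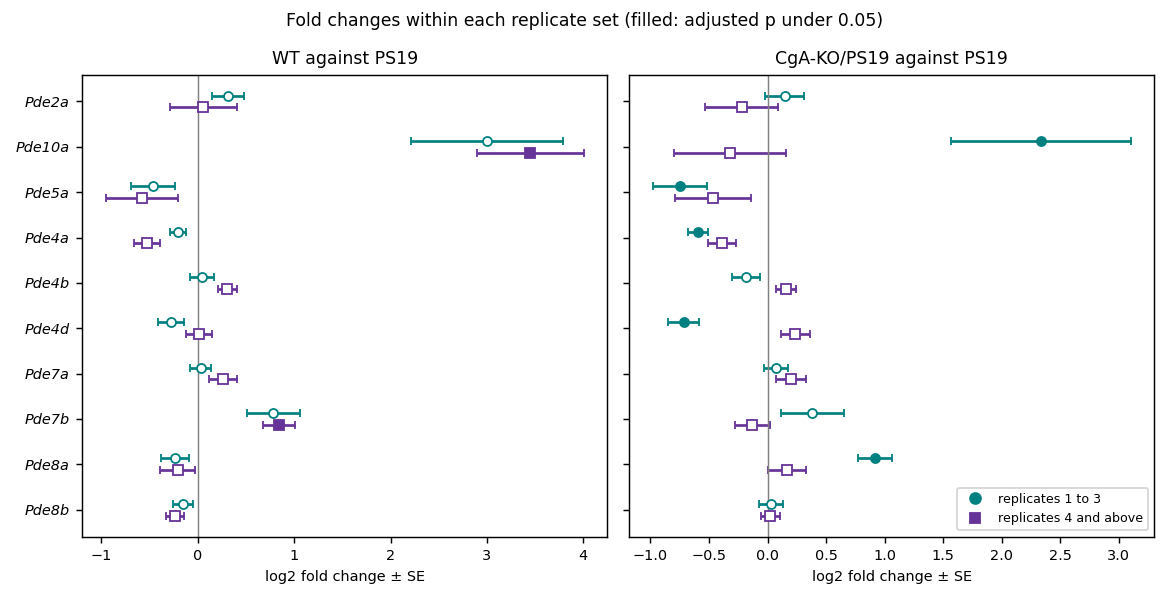
Log2 fold change (x axis, bars are the SE) of the 10 genes within replicates 1 to 3 (circles) and within replicates 4 and above (squares), for WT against PS19 (left) and CgA-KO/PS19 against PS19 (right), filled where the adjusted p was under 0.05. On the right, Pde4d (-0.72 and 0.24) and Pde8a (0.92 and 0.16) differed between the 2 sets by the interaction term, and Pde10a (2.33 and -0.32) did not pass it. On the left Pde10a is at 3.0 and 3.45 and Pde7b at 0.78 and 0.84, filled in replicates 4 and above alone.

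Pde8b (ENSMUSG00000021684, chromosome 13, 95024454 to 95250336, minus strand), the other PDE8 gene, did not pass the test in any comparison. Its libraries lay between 110 and 120 CPM in PS19 (median 115), between 111 and 121 in CgA-KO/PS19 (median 117.002) and between 88.3 and 118 in WT (median 97.3). Only WT reached below the other genotypes, with 4 of its 5 libraries under the lowest PS19 library. The log2 fold changes were -0.17 ± 0.078 in WT against PS19 (adjusted p = 0.216), 0.029 ± 0.074 in CgA-KO/PS19 against PS19 (adjusted p = 0.835) and 0.20 ± 0.078 in CgA-KO/PS19 against WT (adjusted p = 0.137).

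Pde7a (ENSMUSG00000069094, chromosome 3, 19223108 to 19311322, minus strand), the other PDE7 gene, had libraries at 21.5 to 23.6 CPM in PS19, 22.7 to 29.7 in WT and 22.1 to 28.7 in CgA-KO/PS19. Its medians were 23.0, 24.8 and 24.7 CPM in that order, and the ranges overlapped. The log2 fold changes were 0.14 ± 0.094, 0.14 ± 0.089 and 3.0e-05 ± 0.094 in WT against PS19, CgA-KO/PS19 against PS19 and CgA-KO/PS19 against WT (adjusted p = 0.432, 0.33 and 1).

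Of the 6 genes of the Ca2+-calmodulin, cGMP-inhibited and cGMP-specific classes PDE1, PDE3 and PDE9, 4 were higher in WT than in PS19, 2 did not pass the test and none was lower. They were Pde1c (log2 fold change 1.83 ± 0.29), Pde3a (1.68 ± 0.30), Pde9a (0.85 ± 0.17) and Pde1b (1.43 ± 0.39), while Pde1a (0.094 ± 0.32) and Pde3b (0.064 ± 0.12) did not pass. In that comparison 16 of the 20 striatal markers were also higher in WT, and the part of striatal RNA in these values was not tested. Pde1c (1.16 ± 0.27), Pde3a (1.08 ± 0.29) and Pde9a (0.55 ± 0.17) were higher in CgA-KO/PS19 against PS19. Pde1b (0.59 ± 0.37, adjusted p = 0.318), Pde1a (-0.18 ± 0.30) and Pde3b (0.030 ± 0.11) did not pass there. Against WT 0 of 6 passed by edgeR, with 2 at an unadjusted p under 0.05. Of all genes tested, 5.9%, 9.72% and 6.46% were called in WT against PS19, CgA-KO/PS19 against PS19 and CgA-KO/PS19 against WT. Of 8 further genes of the classes PDE4, PDE6 and PDE11, Pde6a, Pde6c and Pde6h were below the filter. Of the other 5 only Pde11a passed, lower in CgA-KO/PS19 (3.51 ± 1.34 CPM) than in WT (7.38 ± 3.37, log2 fold change -1.08 ± 0.29, adjusted p = 0.0313).

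Among 17 effectors of cAMP, 1 was higher in WT than in PS19, Ppp1r1b (log2 fold change 2.54 ± 0.62, adjusted p = 0.0203), which encodes DARPP-32, a phosphatase inhibitor and protein kinase A substrate of medium spiny neurons and also 1 of the 20 striatal markers. In CgA-KO/PS19 against PS19, the protein kinase A regulatory subunits Prkar2b (0.93 ± 0.21, adjusted p = 0.0146) and Prkar1b (-0.50 ± 0.12, adjusted p = 0.0205) went in opposite directions. Against WT, Rapgef4, which encodes the cAMP-activated exchange factor Epac2, was higher in CgA-KO/PS19 (1.41 ± 0.29, adjusted p = 0.00904). Among 10 genes of cGMP synthesis and action, Nos1, the neuronal nitric oxide synthase, was higher in WT than in PS19 (1.54 ± 0.33, adjusted p = 0.00926). The cGMP-dependent kinase Prkg2 stood above PS19 in CgA-KO/PS19 (0.62 ± 0.15, adjusted p = 0.0177). The guanylate cyclase subunit Gucy1a1 was lower in CgA-KO/PS19 than in WT (-0.47 ± 0.13, adjusted p = 0.0398). Among 13 anchors and partners, Akap9 was higher (0.80 ± 0.15, adjusted p = 0.00443) and Akap12 lower (-0.67 ± 0.17, adjusted p = 0.0255) in WT than in PS19. Of these 13, 0 passed by edgeR in CgA-KO/PS19 against PS19, with 3 at an unadjusted p under 0.05, and Akap9 was lower in CgA-KO/PS19 than in WT (-0.55 ± 0.15, adjusted p = 0.0372). In WT against PS19, 16 of the cAMP effectors, 9 of the cGMP genes and 11 of the anchors did not pass. Over all genes tested, 5.9% passed in WT against PS19, 9.72% in CgA-KO/PS19 against PS19 and 6.46% in CgA-KO/PS19 against WT.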

How the data were processed

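Polyadenylated RNA of mouse prefrontal cortex was sequenced as paired-end reads. Per the labels and methods, the authors trimmed reads (Trimmomatic 0.39), aligned them to mm10 (STAR 2.7.10b), and derived gene counts from StringTie (1.3.6) coverage with its prepDE script. The annotation release and the strand setting are not given in the sources used here. The deposited values were unnormalised read counts per gene, used as deposited. Genes whose count is 3 outnumbered those whose count is 4 in every library by 2.40 to 4.40 times, so low counts are coarse.

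Counts of 23062 genes that passed filterByExpr were fitted over all 17 libraries with edgeR 4.0.16 (TMM, quasi-likelihood F-test, two-sided) in R 4.3.3, and p-values were Benjamini-Hochberg adjusted over all of these genes. A gene was called at an adjusted p under 0.05. Groups came from the genotype labels, and 5 WT, 6 PS19 and 6 CgA-KO/PS19 libraries entered, with 8838334 to 227651681 counts (median 99510400). The study names both sexes per group, and the labels give none per library. Lengths and positions came from GENCODE M21 (52029 of 56953 IDs matched) and promoter windows from RefSeq. Similarity was Pearson's r of log2(CPM + 1). The 34 alternatives included DESeq2 1.42.0, limma voom (limma 3.58.1), other filters, covariates, a replicate block and each library left out in turn, 29 planned and 5 added after seeing the data. The fits were tested on simulated data. The members, lists and tests were chosen with earlier results of these data known. Named were all 10 members, Chga, Prnp and Mapt as checks, the PDE1, PDE3 and PDE9 genes in full, of each other list up to 3 called genes per direction with the smallest p, and for each called member the 3 genes of at least 1 CPM most correlated with it. Rapgef4, Gucy1a1 and Pde11a, called against WT, and Drd1, Drd2, Adora2a and the marker examples were named after their values were seen.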

Additional observations from a re-analysis of the deposited data

Results flagged for a closer look

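Pde7b in PS19 replicate 3 stood at 63.3 CPM, below the other 5 PS19 libraries, and its gap to the nearest of them was 0.717 of the range of the genotype, past the critical value of Dixon's test for 6 libraries. Of 30 such groups checked, this was 1, and chance gives about 1 in 20. Between replicates 1 to 3 and replicates 4 and above, sets that Ddx3y separates in every genotype, 3 effects differed by an interaction term of the edgeR fit over all genes. That term called 2 of the 10 members beside 11.7% of all genes in CgA-KO/PS19 against PS19, 1 beside 5.47% in CgA-KO/PS19 against WT and 0 beside 0.0564% in WT against PS19. The difference in the log2 fold change of Pde4d in CgA-KO/PS19 against PS19 was -0.99 (adjusted p = 0.00524). For Pde8a in the same comparison it was 0.72 (adjusted p = 0.0449), and for Pde4a in CgA-KO/PS19 against WT it was -0.54 (adjusted p = 0.0456).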

How the results depend on the processing

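Depth limited Pde8a most, with 88 counts in WT replicate 4, the lowest count of any member in any library. Annotated overlap with Gm45837 limits Pde2a, and unbalanced striatal and oligodendrocyte markers limit the members that moved with them. PS19 replicates 4 to 6 were close to each other, and so were CgA-KO/PS19 replicates 1 and 3. In WT against PS19, CgA-KO/PS19 against PS19 and CgA-KO/PS19 against WT, edgeR called 1361, 2242 and 1489 genes and 2, 2 and 2 members. The causes of the changes below were not tested. DESeq2 called 2396, 3958 and 2564 genes, limma voom 3967, 5229 and 2458, a replicate block 660, 654 and 614, averaging of near-identical libraries 425, 168 and 579, the fit without the 4 libraries high in striatal markers 732, 700 and 400, and replicates 1 to 3 alone 128, 6713 and 4474. Fitting 2 genotypes gave 2275 in WT against PS19 and 266 in CgA-KO/PS19 against WT, and the striatal score as a covariate 4320 and 5093 in the same comparisons. Replicates 4 and above gave 190 and 718 and the oligodendrocyte score 857 and 982 in the comparisons of CgA-KO/PS19 with PS19 and with WT. Members called became 4 in WT against PS19 with voom and with the oligodendrocyte score, and 0 with averaged libraries and in replicates 1 to 3. With the striatal score 2 were called there, but they were Pde8a and Pde4d in place of Pde10a and Pde7b. Against PS19, CgA-KO/PS19 had 1 with no filter, the block, either score or without the 4 libraries, 0 with averaged libraries or replicates 4 and above, and 5 in replicates 1 to 3. Against WT it had 1 with at least 10 counts in every library, the block or averaged libraries, and 0 with 2 genotypes. Each library left out in turn gave 632 to 1658, 1019 to 3822 and 627 to 2099 genes and 1 to 3, 1 to 3 and 1 to 2 members. The lowest gene counts came without WT replicate 5 (632 and 627) and without CgA-KO/PS19 replicate 2 (1019), and the highest against PS19 without CgA-KO/PS19 replicate 4 (3822).

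Signs turned under several settings, given as log2 fold changes, mostly of small changes but also of Pde10a (1.61 with all libraries). Between CgA-KO/PS19 and PS19, Pde4b was at 0.0050 with DESeq2, 0.012 with DESeq2 size factors, 0.044 with at least 10 counts, 0.0013 with voom, 0.012 with the striatal score, 0.029 without the 4 libraries and 0.16 in replicates 4 and above. Pde2a was at 0.0048 with DESeq2 size factors, 0.042 with at least 10 counts, 0.15 in replicates 1 to 3 and 0.17 when summed with Gm45837. Pde4d was at 0.069 with the striatal score, 0.061 without the 4 libraries, 0.24 in replicates 4 and above and 0.036 with the oligodendrocyte score. In the same 4 settings Pde7b was at -0.18, -0.13, -0.13 and -0.11 and Pde10a at -0.45, -0.14, -0.32 and -0.40. Pde8b was at -0.024 with no filter and -0.00014 with the oligodendrocyte score. In WT against PS19, the striatal score gave -0.32 for Pde2a, 0.53 for Pde4d (called, adjusted p = 0.0368) and 0.23 for Pde5a. Replicates 4 and above gave 0.013 for Pde4d in that comparison. Between CgA-KO/PS19 and WT, Pde7a was at -0.029 with no filter, -0.018 with the block, -0.11 with the striatal score, -0.0066 with Ddx3y as a covariate and -0.058 in replicates 4 and above. Pde5a was at 0.028 with voom, 0.042 with averaged libraries, 0.11 in replicates 4 and above and 0.42 with the oligodendrocyte score. Pde4d was at 0.058 with averaged libraries, 0.21 without the 4 libraries, 0.22 in replicates 4 and above and 0.26 with the oligodendrocyte score, Pde2a at 0.032 with the striatal score and Pde4a at 0.14 in replicates 4 and above. Libraries left out in turn moved Pde2a from -0.17 to 0.062 and Pde4b from -0.042 to 0.046 against PS19, and Pde4d from -0.15 to 0.058, Pde5a from -0.18 to 0.11 and Pde7a from -0.042 to 0.062 against WT. Deviations of libraries with equal replicate numbers correlated at -0.316 to 0.507, not above 0.1 in every pair, so the numbers were not taken to pair libraries. Numbers 1 to 3 do share the Ddx3y split in every genotype, so the block carries part of that split.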
